A study of Mus musculus with 6 samples.

Results

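The genes described here are the Notch receptors Notch1, Notch2 and Notch4, the ligands Dll1, Dll3, Dll4 and Jag1, and the target genes Hes1, Hey1 and Hey2, in FLK1+ mesodermal cells with and without SCL. Members were chosen by symbol, as the rows of the deposited table that carried these names, and 10 of the 14005 listed genes matched. Notch receptors are membrane proteins that bind Delta-like and Jagged ligands on neighbouring cells. Binding leads to cleavage by ADAM proteases and gamma-secretase, and the freed intracellular domain enters the nucleus, joins the DNA-binding protein RBPJ and turns on genes of the HES and HEY families, which encode transcriptional repressors. In the early mesoderm, Dll1, Dll3 and the receptor-modifying enzyme gene Lfng are known for their roles in presomitic (paraxial) mesoderm and somite formation, whereas Dll4, Notch4, Hey1 and Hey2 are known from endothelium, arterial endothelium in particular.

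RNA was sequenced from FLK1+ cells isolated on magnetic columns, after staining with a PE-coupled FLK1 antibody, from embryoid bodies (EBs) at day 3.5 of mouse embryonic stem (ES) cell differentiation. There were 3 WT libraries, from the J1 ES cell line, and 3 Scl-/- libraries, from an ES cell line lacking the Scl (Tal1) gene, numbered 1 to 3 in each group and described by the submitters as independent differentiations. Each genotype was thus represented by a single ES cell line, and differences between the lines other than Scl cannot be told apart from the genotype. The strain was labelled C57Bl/6 X Sv129 for WT replicates 1 and 2 and Scl-/- replicate 1, and C57Bl/6 X Sv130, Sv131 and Sv132 for Scl-/- replicate 2, WT replicate 3 and Scl-/- replicate 3. In sample order the last number is the same for the first samples and then goes up by 1 from each sample to the next, and whether these labels stand for different strains cannot be told from them. Values are the authors' CPM, reads scaled to the size of each library, and are given in the order of replicates 1, 2 and 3. The smallest step between the CPM values of a library gave its depth, which was 39713877, 38623641 and 40769209 reads on listed genes for WT and 47621120, 42108168 and 43662177 for Scl-/- replicates. A floor of 3 reads thus lay between 0.0615 and 0.0784 CPM, and it covers counting error only.

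Tal1, the disrupted gene (ENSMUSG00000028717, chromosome 4), had 303, 182 and 306 CPM in WT and 9.35, 5.68 and 5.87 CPM in Scl-/- libraries, with a log2 fold change of -5.14. Kdr, which encodes FLK1 and defines the isolated cells, had 868, 832 and 867 CPM in WT and 724, 777 and 810.4 CPM in Scl-/- libraries, so that the label FLK1+ was met by a high level in each of the 6. Libraries of the same number deviated together from their group means and were taken as pairs. The libraries numbered 2 lay at an end of the range of Pou5f1 and of Cdh5 in both genotypes. Pou5f1, a pluripotency gene, was highest there within each genotype (67.1, 122 and 92.3 CPM in WT, 71.6, 190.3 and 177 CPM in Scl-/- libraries). In Scl-/- cells Pou5f1 was close in replicates 2 and 3, and replicate 1 lay apart. Cdh5, which encodes VE-cadherin, was lowest in replicate 2 of each genotype (111, 57.2 and 146 CPM in WT, 12.7, 4.38 and 21.3 CPM in Scl-/- libraries). A fit with the replicate number as a block is given beside the fit without it where it changed a member's call, and calls that ended without the pair numbered 2 are named.

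A call required that limma's adjusted p over 13991 tested genes, all members among them, was below 0.05 and that the log2 fold change exceeded 0.48 in size. Of the 10 members, 1 was called without the block, against 2.36% of all tested genes (330). With the replicate block 5 were called, against 12.6% of all tested genes (1768), namely Notch2 and Hey2 as lower and Jag1, Dll1 and Dll3 as higher in Scl-/- cells. The groups did not overlap for 3 members, Notch2 and Hey2 on the lower and Jag1 on the higher side, against 21.6% of all tested genes. In every pair 4 members were higher in Scl-/- cells (Hes1 by little) and 3 were lower. Of all tested genes, 29.85% were higher and 26.4% lower in every pair. The members' median log2 fold change was 0.052, beside 0.0090 over all tested genes. The 4 member ligands lay above 0, though the confidence intervals of Dll4 and, without the block, of Dll1 included 0. Dlk1 and Jag2, ligands that are not members, lay below 0. Member receptors and targets lay on both sides. In these bulk libraries, fewer cells of a type and less RNA per cell cannot be told apart.

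**Figure D1:**
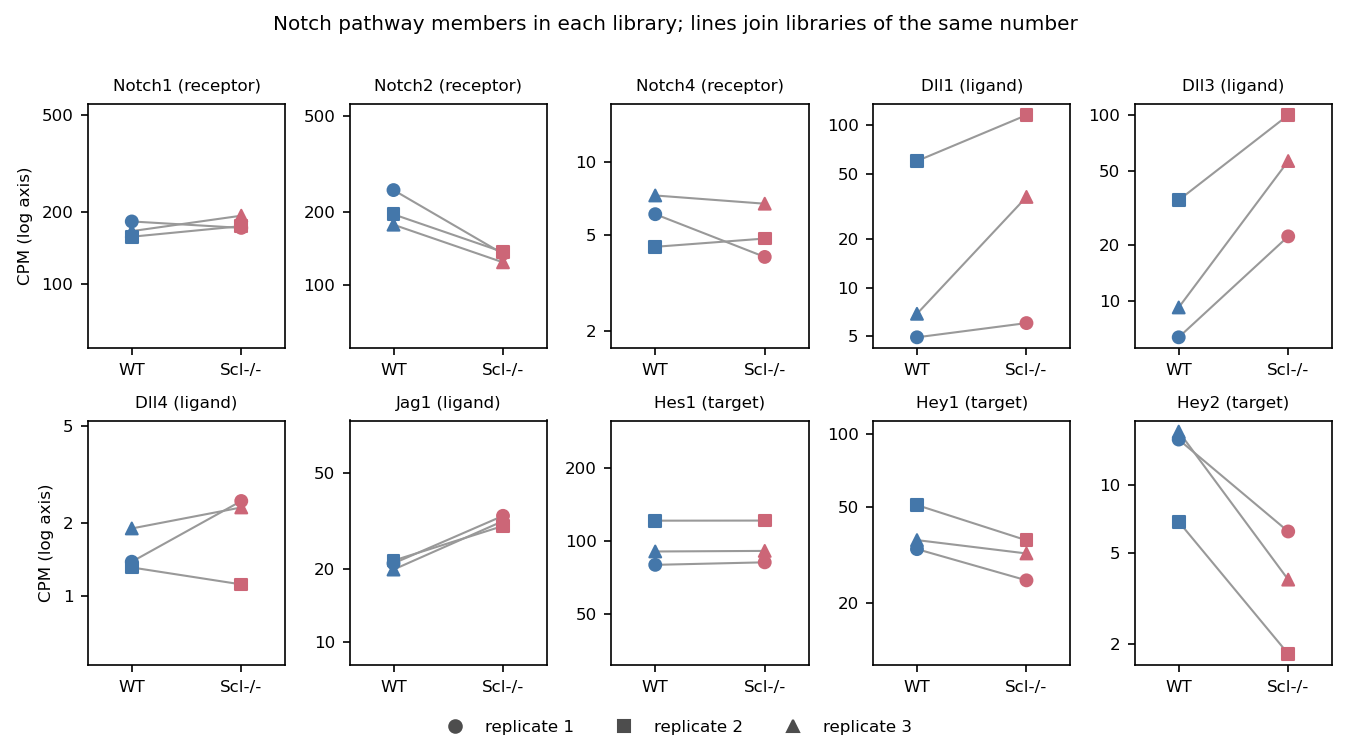
CPM of each member (vertical log axis, with its own range in each panel) in WT and Scl-/- libraries, where symbols stand for replicates 1 to 3 and lines join libraries of the same number. Notch2, Hey1 and Hey2 ran downward and Jag1, Dll1 and Dll3 upward in each of the 3 pairs, and the lines of Hes1 were flat.

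Among the receptors, Notch1 (ENSMUSG00000026923, mm9 chromosome 2, 26313423 to 26372183) had 182, 157 and 166 CPM in WT and 171, 174 and 192 CPM in Scl-/- libraries. The groups overlapped, and the log2 fold change of 0.09 (SE 0.097, adjusted p = 0.743) had a 95% confidence interval of -0.14 to 0.32. Notch2 (ENSMUSG00000027878, chromosome 3, 97817461 to 97954290), a receptor of the same class that is widely expressed in embryonic mesoderm, had 246, 196 and 177 CPM in WT and 134, 137 and 124 CPM in Scl-/- libraries. Every Scl-/- library lay below every WT library. The log2 fold change of Notch2 was -0.63 (SE 0.13, adjusted p = 0.0607, or 0.00163 with the block), and the log2 differences within pairs were -0.87, -0.52 and -0.52. Since Notch1 did not follow, the ratio of Notch1 to Notch2 CPM was 0.739, 0.805 and 0.937 in WT and 1.27, 1.27 and 1.55 in Scl-/- libraries, without overlap.

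Notch4 (ENSMUSG00000015468, chromosome 17, 34701213 to 34725448), a receptor gene expressed mainly in endothelial cells, had 6.10, 4.47 and 7.28 CPM in WT and 4.06, 4.83 and 6.74 CPM in Scl-/- libraries. The groups overlapped, with a log2 fold change of -0.18 (SE 0.24, adjusted p = 0.813), and Scl-/- replicate 2 lay above WT replicate 2. Cdh5, an endothelial junction gene, had a log2 fold change of -3.13 in the same libraries (adjusted p = 0.0355). This value lay near the low end of the 13 endothelial markers listed, for which the median was -1.72. Sox18 (-0.56) and Ramp2 (-0.40) were closer to Notch4, and Eng lay above 0 (0.47).

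Among the ligands, Dll1 and Dll3 were the members that varied most. Dll1 (ENSMUSG00000014773, chromosome 17, 15504318 to 15513836), which activates Notch receptors on neighbouring cells, had 4.94, 60.2 and 6.90 CPM in WT and 6.05, 115 and 36.2 CPM in Scl-/- libraries. Its level differed by a factor of 12.2 between the highest and the lowest WT library and of 19.1 among the Scl-/- libraries, with replicate 2 the highest in each. The groups overlapped. Within pairs the log2 difference was 0.27, 0.93 and 2.31, always toward Scl-/- but of unequal size. Without the block the log2 fold change of 1.17 had an SE of 1.20 and an adjusted p of 0.718, and it ran from 0.20 (without Scl-/- replicate 2) to 2.28 (without Scl-/- replicate 1) when a library was left out. With it the SE was 0.31 and the adjusted p 0.0309, and this call was lost when pair 2 (log2 fold change 1.29, adjusted p = 0.118) or pair 3 (0.60, adjusted p = 0.0713) was left out.

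Dll3 (ENSMUSG00000003436, chromosome 7, 29076673 to 29087257), a divergent ligand known for acting within the cell that makes it, had 6.40, 34.9 and 9.25 CPM in WT and 22.3, 99.7 and 56.5 CPM in Scl-/- libraries. Replicate 2 was again the highest in each genotype, and WT replicate 2 lay above Scl-/- replicate 1. The differences within pairs, 1.72, 1.50 and 2.55 on the log2 scale, were closer to each other than those of Dll1. Its log2 fold change of 1.92 (SE 0.70, adjusted p = 0.216) was called with the block (SE 0.18, adjusted p = 3.6e-04), also when pair 2 was left out (2.14, adjusted p = 0.00251).

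Jag1 (ENSMUSG00000027276, chromosome 2, 136907192 to 136942380), a ligand of the Jagged class, had 21.2, 21.8 and 19.98 CPM in WT and 33.3, 30.3 and 31.7 CPM in Scl-/- libraries. All 3 Scl-/- libraries were above all WT libraries, and libraries of a group differed by no more than a factor of 1.10. The mean rose from 21.0 ± 0.912 to 31.8 ± 1.53 CPM (SD, n = 3 each), with a log2 fold change of 0.59 (SE 0.11, adjusted p = 0.0396). It was the member called without the block, and leaving out any of the 6 libraries ended that call, with adjusted p between 0.0677 and 0.207 and log2 fold changes between 0.55 and 0.62. With the block Jag1 was called on all libraries (adjusted p = 0.00275) and without each pair.

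Dll4 (ENSMUSG00000027314, chromosome 2, 119151520 to 119161698), the ligand best known from arterial and sprouting endothelium, was the lowest member. It had 1.38, 1.31 and 1.89 CPM in WT and 2.46, 1.11 and 2.31 CPM in Scl-/- libraries, or 46 to 120.0 reads per library. The groups overlapped, and the log2 fold change was 0.24 (SE 0.28, adjusted p = 0.765, 95% confidence interval -0.42 to 0.90).

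Of the target genes, Hes1 (ENSMUSG00000022528, chromosome 16, 30064470 to 30067882), a general Notch target that also responds to other pathways, had 79.8, 121 and 90.6 CPM in WT and 81.7, 122 and 91.1 CPM in Scl-/- libraries. Libraries of the same number had nearly the same level, with log2 differences of 0.034, 0.0014 and 0.0079, while replicate 2 was the highest in both genotypes. The log2 fold change was 0.015, with a 95% confidence interval of -0.45 to 0.48 without and -0.12 to 0.15 with the block. When single libraries were left out it took either sign, from -0.15 to 0.19.

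Hey1 (ENSMUSG00000040289, chromosome 3, 8663362 to 8667039) had 33.5, 50.9 and 36.5 CPM in WT and 24.9, 36.4 and 32.1 CPM in Scl-/- libraries. It was lower in Scl-/- cells within each pair, by -0.42, -0.48 and -0.18 on the log2 scale, while the groups overlapped. The log2 fold change of -0.36 had an adjusted p of 0.426, or 0.0203 with the block, and was below the fold-change threshold in either fit. Hey2 (ENSMUSG00000019789, chromosome 10, 30552165 to 30562607), which encodes a repressor that acts in arterial and cardiac development, had 15.8, 6.87 and 17.1 CPM in WT and 6.23, 1.81 and 3.83 CPM in Scl-/- libraries. Each Scl-/- library lay below each WT library, though WT replicate 2 and Scl-/- replicate 1 were close. The mean was 13.2 ± 5.55 CPM in WT and 3.96 ± 2.21 CPM in Scl-/- cells (SD, n = 3 each), the log2 fold change -1.65 (SE 0.46, adjusted p = 0.124). With the block it was called lower (SE 0.16, adjusted p = 4.3e-04), also without pair 2 (-1.65, adjusted p = 0.00699).

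**Figure D2:**
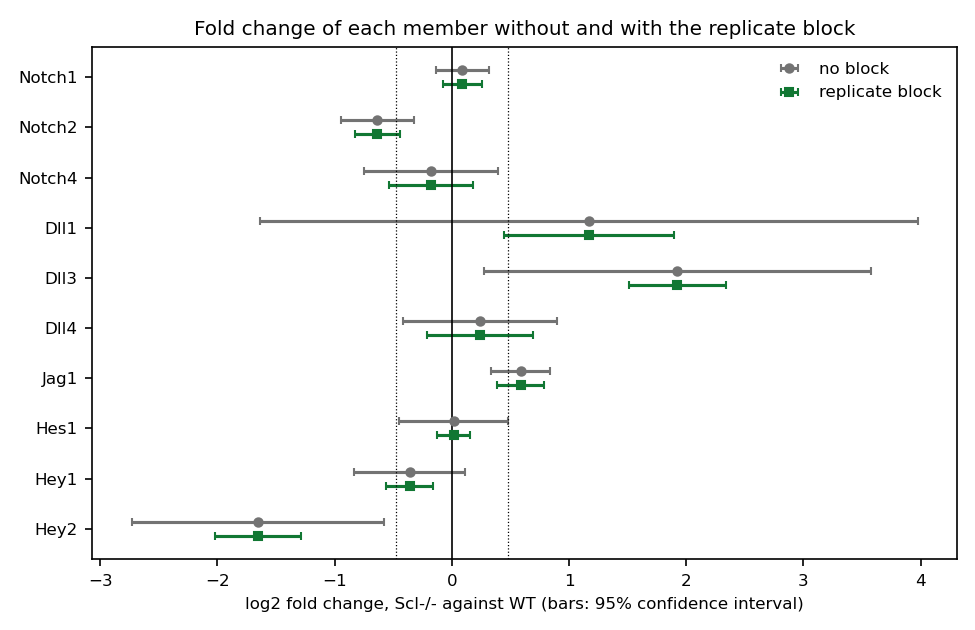
Log2 fold change of each member, Scl-/- against WT, with 95% confidence intervals from limma without (circles) and with (squares) the replicate block. Dotted lines mark the fold-change threshold of 0.48, and the interval of Dll1 runs from -1.64 to 3.98 without and from 0.44 to 1.90 with the block.

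The promoter windows of Hey2, Jag1, Dll3 and Dll1 are printed here because these ligand and HEY genes were called with the block, in opposite directions. Windows come from RefSeq (GRCm38.p6), cover the 250 bases before the transcription start and are written 5′ to 3′ on the gene's strand, and 8 of the 10 members had 9 windows. Hes1 and Hey1 had no entry. Both strands were searched and matches are in capitals. The core motif of RBPJ was searched as GTGGGAA. Its shorter form, which the longer contains, was TGGGAA. The E-box, bound by basic helix-loop-helix proteins such as SCL with its E protein partners, was searched as CANNTG. The motif CACGTG, a form of it bound by HEY proteins, was searched as well. The motif of GATA factors was AGATAA. The windows lie at chr10:30842784-30843033 (minus strand) for Hey2, chr2:137116521-137116770 (minus strand) for Jag1, chr7:28301786-28302035 (minus strand) for Dll3 and chr17:15376933-15377182 (minus strand) for Dll1, where the window of the farther upstream of 2 starts was taken.
Hey2: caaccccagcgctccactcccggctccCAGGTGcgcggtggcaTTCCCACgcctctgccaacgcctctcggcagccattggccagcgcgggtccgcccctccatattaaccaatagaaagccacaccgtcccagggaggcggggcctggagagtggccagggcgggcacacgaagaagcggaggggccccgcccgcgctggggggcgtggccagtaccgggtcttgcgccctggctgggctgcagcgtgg
Jag1: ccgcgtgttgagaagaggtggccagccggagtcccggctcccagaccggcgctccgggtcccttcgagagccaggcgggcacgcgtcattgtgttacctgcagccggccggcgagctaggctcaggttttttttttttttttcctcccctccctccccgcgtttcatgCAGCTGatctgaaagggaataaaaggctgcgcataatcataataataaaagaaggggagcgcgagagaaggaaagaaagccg
Dll3: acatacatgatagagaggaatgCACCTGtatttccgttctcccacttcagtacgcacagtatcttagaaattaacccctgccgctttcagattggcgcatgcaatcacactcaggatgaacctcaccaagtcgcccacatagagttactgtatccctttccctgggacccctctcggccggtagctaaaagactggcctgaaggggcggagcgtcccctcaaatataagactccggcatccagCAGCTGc
Dll1: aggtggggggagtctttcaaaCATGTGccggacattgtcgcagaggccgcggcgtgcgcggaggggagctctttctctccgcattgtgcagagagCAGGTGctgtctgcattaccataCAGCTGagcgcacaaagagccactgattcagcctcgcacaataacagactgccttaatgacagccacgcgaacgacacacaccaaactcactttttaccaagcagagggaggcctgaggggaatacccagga

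Of the 9 windows, the RBPJ core GTGGGAA was found in that of Hey2 only, on the reverse strand from 207 bases before the start, and 5.42% of all 32851 windows of this length hold it (21.6% hold TGGGAA). Hey2 also had an E-box, CAGGTG, 223 bases before the start. Dll3 had 2 E-boxes and Jag1 had 1, each with a CAGCTG. The upstream Dll1 window had 3 E-boxes, a CAGCTG among them, and its other window had 1. CANNTG occurs in 66.2% of all windows. Notch4 had 1 E-box, and the windows of Notch1, Notch2 and Dll4 held none of the motifs. No member window held CACGTG (6.02% of all windows) or AGATAA (9.99%). A match is a description of letters in the window and not a site of binding.

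Levels of different genes were compared per kb of annotated exon. In WT cells Hes1 was the highest member, at 47.8 ± 10.6 CPM per kb (SD, n = 3), followed by Notch2 at 19.6 ± 3.41 and Hey1 at 18.3 ± 4.23 CPM per kb, which did not differ beyond their spread, and by Notch1 at 11.8 ± 0.877 CPM per kb. Dll3 (5.85 ± 5.45), Dll1 (5.69 ± 7.44), Hey2 (5.19 ± 2.18) and Jag1 (3.60 ± 0.157 CPM per kb) had means in the middle, and Notch4 (0.738 ± 0.175) and Dll4 (0.396 ± 0.0831 CPM per kb) were lowest. This order of means did not hold in each library. In WT replicate 2, Dll1 (14.3) and Dll3 (12.1) lay above Notch1 (11.1 CPM per kb), while Dll1 had 1.17 CPM per kb in WT replicate 1. In Scl-/- cells Hes1 stayed first at 48.2 ± 10.2 CPM per kb. Notch1 and Notch2, at 12.6 ± 0.803 and 12.5 ± 0.650 CPM per kb, no longer differed beyond their spread. Dll3 reached 20.7 ± 13.5 and Dll1 12.5 ± 13.4 CPM per kb, next to Hey1 at 14.1 ± 2.65, while Hey2 (1.55 ± 0.867) lay below Jag1 (5.45 ± 0.263 CPM per kb).

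The members also differed in how much of their variation went with the genotype and how much with the replicate number. Of the sum of squares of log2(CPM + 0.5) over the 6 libraries, the replicate number held 99.8% for Hes1 and 82.5% for Dll1, where the median over all tested genes was 58.4% and the 90th percentile 92.0%. Notch4, Dll4 and Hey1 had 68.9%, 61.2% and 59.8% on the replicate number. The genotype held 96.8% for Jag1, 82.3% for Notch2, 65.5% for Hey2 and 50.6% for Dll3, with a median of 21.3% over all tested genes. Notch1 was split between replicate number (27.5%), genotype (23.7%) and the rest (48.8%).

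**Figure D3:**
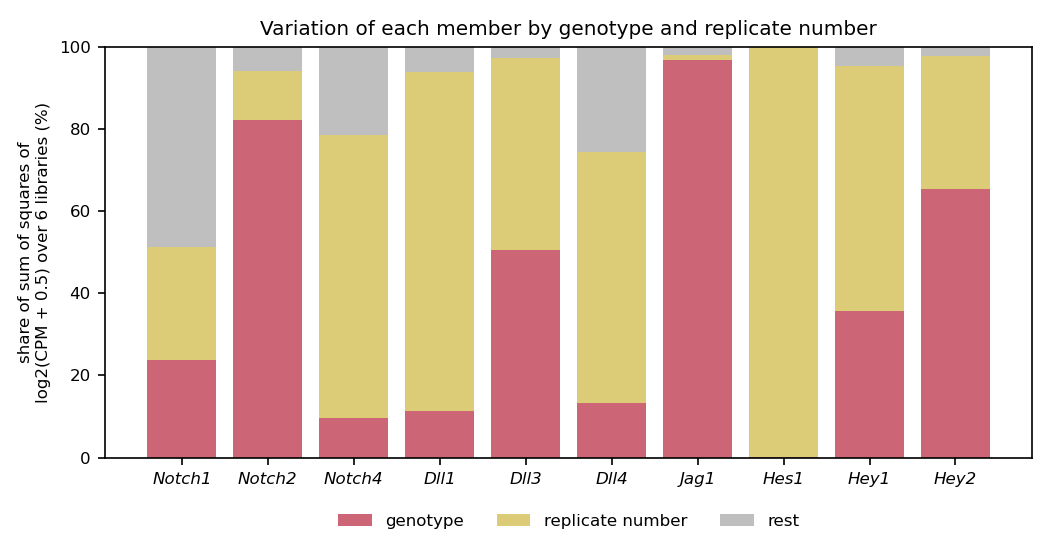
Share of the sum of squares of log2(CPM + 0.5) over the 6 libraries held by genotype, by replicate number and by the rest, for each member. Hes1 varied with the replicate number (99.8%) and Jag1 with the genotype (96.8%).

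The endothelial members (Dll4, Notch4, Hey1 and Hey2) and the paraxial members (Dll1 and Dll3) were contrasted by their mean log2(CPM + 0.5) in each library, as a description without a test. The endothelial mean was 3.19, 2.93 and 3.39 in WT and 2.79, 2.38 and 2.87 in Scl-/- libraries. Every Scl-/- value was lower than every WT value, and Hey2 had the largest share in this, since Dll4 and Notch4 overlapped between groups. The paraxial mean was 2.62, 5.53 and 3.09 in WT and 3.61, 6.75 and 5.51 in Scl-/- libraries, higher in Scl-/- cells within each pair while the groups overlapped. The difference, endothelial minus paraxial, was 0.57, -2.60 and 0.30 in WT and -0.82, -4.37 and -2.64 in Scl-/- libraries. It was lower in Scl-/- cells in each pair, by -1.39, -1.77 and -2.95, but WT replicate 2 lay below Scl-/- replicate 1 and beside Scl-/- replicate 3, so that libraries of a genotype differed by as much as the genotypes. The group difference of -2.04 was -2.17 without pair 2, and -1.16 without Scl-/- replicate 2 alone.

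**Figure D4:**
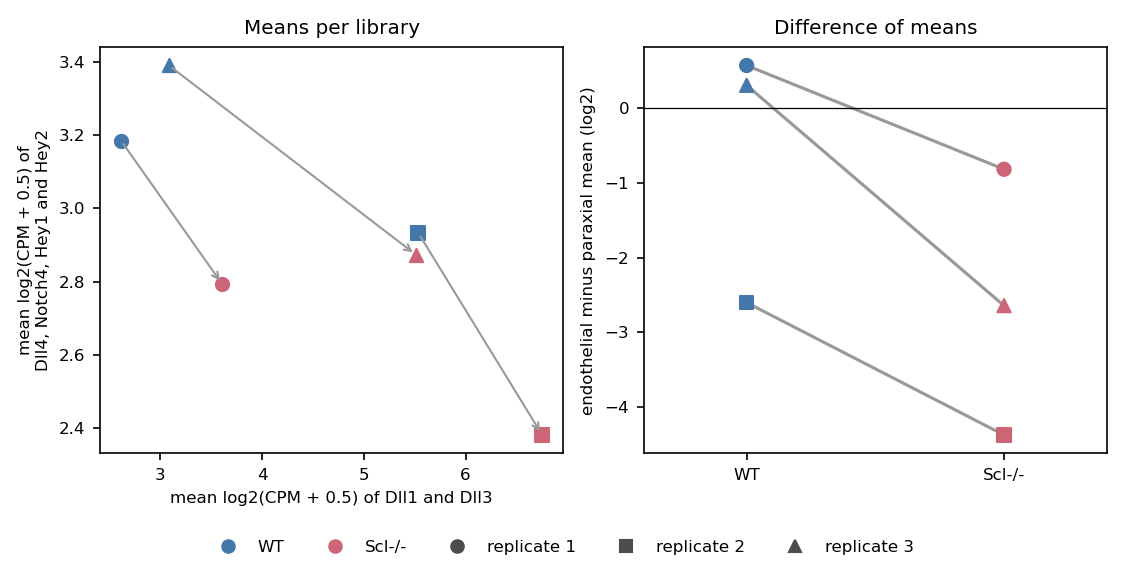
Left, mean log2(CPM + 0.5) of Dll4, Notch4, Hey1 and Hey2 (vertical) against that of Dll1 and Dll3 (horizontal) in each library, with arrows from the WT to the Scl-/- library of the same number; right, the difference of both means by genotype. Each arrow points down and to the right, and WT replicate 2 sits beside Scl-/- replicate 3.

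Ratios of CPM within a library were compared between libraries only. The ratio of Dll1 to Dll4 was 3.58, 46.1 and 3.64 in WT and 2.46, 104 and 15.6 in Scl-/- libraries, highest in replicate 2 of each genotype. It was lower in Scl-/- than in WT replicate 1, the pair in which Dll1 differed least and Dll4 was higher in Scl-/- cells. The ratio of Hey1 to Hey2 was 2.13, 7.41 and 2.14 in WT and 3.99, 20.1 and 8.38 in Scl-/- libraries, and was higher in Scl-/- cells in every pair. Both ratios overlapped between the groups, with WT replicate 2 above Scl-/- replicate 1.

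Other genes of the pathway were taken from a list of 68 names by role, of which 55 matched a listed gene. The others, among them Hes5, Hes7 and Heyl, were not analysed here (Tle5 is a later name of Aes, which was listed). In limma without the block 0 of the 55 were called, although 15 had an unadjusted p of less than 0.05, as did 17.7% of all tested genes (2474), and limma-voom on the recovered reads also called 0. With the block 11 were called, 7 lower and 4 higher in Scl-/- cells, where 12.6% of all tested genes were called in that fit. The median log2 fold change of the list was -0.030, beside 0.0090 over all tested genes. With the block, called genes were found among the ligands (1 of 2), the sugar-transferring enzymes (2 of 4) and gamma-secretase (1 of 6). Others were among the corepressors (1 of 14), the negative regulators (4 of 11) and the other HES/HEY and related genes (2 of 2). This last group held Hes6 and Bhlhe40 only, since 7 of its 9 names matched no listed gene. None was called among the nuclear complex (0 of 9), the ligand ubiquitin ligases (0 of 3), the proteases (0 of 3) or the remaining receptor. Kat2b, of the nuclear complex and lower in Scl-/- cells, and Dtx3l, a negative regulator and higher, were just under the fold-change threshold in that fit and were called with limma-voom and the block.

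Lfng, which modifies Notch receptors with sugars and is a cyclic gene of the presomitic mesoderm, had 4.42, 11.0 and 6.41 CPM in WT and 10.3, 27.7 and 22.9 CPM in Scl-/- libraries. Its order over libraries was like that of Dll3, with replicate 2 highest in each genotype, and its log2 fold change was 1.40 (adjusted p = 0.148, or 4.8e-04 with the block). Pofut1, the fucosyltransferase that primes the receptors for Lfng, went the other way, with 74.3, 58.2 and 72.5 CPM in WT and 44.4, 38.1 and 51.6 CPM in Scl-/- libraries and a log2 fold change of -0.61 (adjusted p = 0.0939, or 0.00128 with the block).

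Dlk1, a non-canonical ligand and an imprinted gene, had 74.9, 36.7 and 89.5 CPM in WT and 21.0, 16.7 and 35.2 CPM in Scl-/- libraries, without overlap. Its log2 fold change of -1.42 (adjusted p = 0.114, or 2.8e-04 with the block) was the lowest of the list. Jag2 had 15.9, 7.81 and 18.5 CPM in WT and 10.3, 7.25 and 14.5 CPM in Scl-/- libraries and was not called in either fit (log2 fold change -0.35), unlike Jag1. The receptor Notch3, at 194, 168 and 208 CPM in WT and 172, 142 and 177 CPM in Scl-/- libraries, had a log2 fold change of -0.22 (adjusted p = 0.449, or 0.0283 with the block). Its change was under the fold-change threshold in either fit.

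Among the negative regulators, Nrarp, a feedback inhibitor that is itself a Notch target, had 24.0, 42.0 and 33.8 CPM in WT and 43.3, 45.6 and 50.7 CPM in Scl-/- libraries, without overlap. Its log2 fold change of 0.51 (adjusted p = 0.239, or 0.0237 with the block) was called higher with the block, and this call ended without pair 1 (0.35, under the threshold) or pair 3 (adjusted p = 0.124). Dtx4 had a log2 fold change of 0.80 (adjusted p = 0.123, or 0.016 with the block), and its call ended without pair 2 (adjusted p = 0.0713) or pair 3 (adjusted p = 0.0910). Bcl6, at a log2 fold change of 0.94 (adjusted p = 0.316, or 0.00903 with the block), lost its call without pair 2 (adjusted p = 0.0718). Thus none of the 3 higher calls among these regulators held in every fit with a pair left out. Dtx1 was lower, with a log2 fold change of -1.01 (adjusted p = 0.0701, or 0.00736 with the block), and was called without each pair.

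The remaining calls with the block were lower and held without each pair. Hes6, which encodes an inhibitor of HES1, had a log2 fold change of -0.63 (adjusted p = 0.146, or 0.00471 with the block). The repressor gene Bhlhe40 had -1.10 (adjusted p = 0.124, or 0.00579 with the block). Psen2, a catalytic subunit gene of gamma-secretase, had -0.68 (adjusted p = 0.147, or 0.0027 with the block). For Aes, placed among the corepressors by the list only, the log2 fold change was -0.73 (adjusted p = 0.154, or 0.00103 with the block). Rbpj, the DNA-binding partner of all Notch receptors, had 73.5, 77.3 and 66.1 CPM in WT and 78.6, 77.5 and 68.8 CPM in Scl-/- libraries, with a log2 fold change of 0.05 (adjusted p = 0.892).

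**Figure D5:**
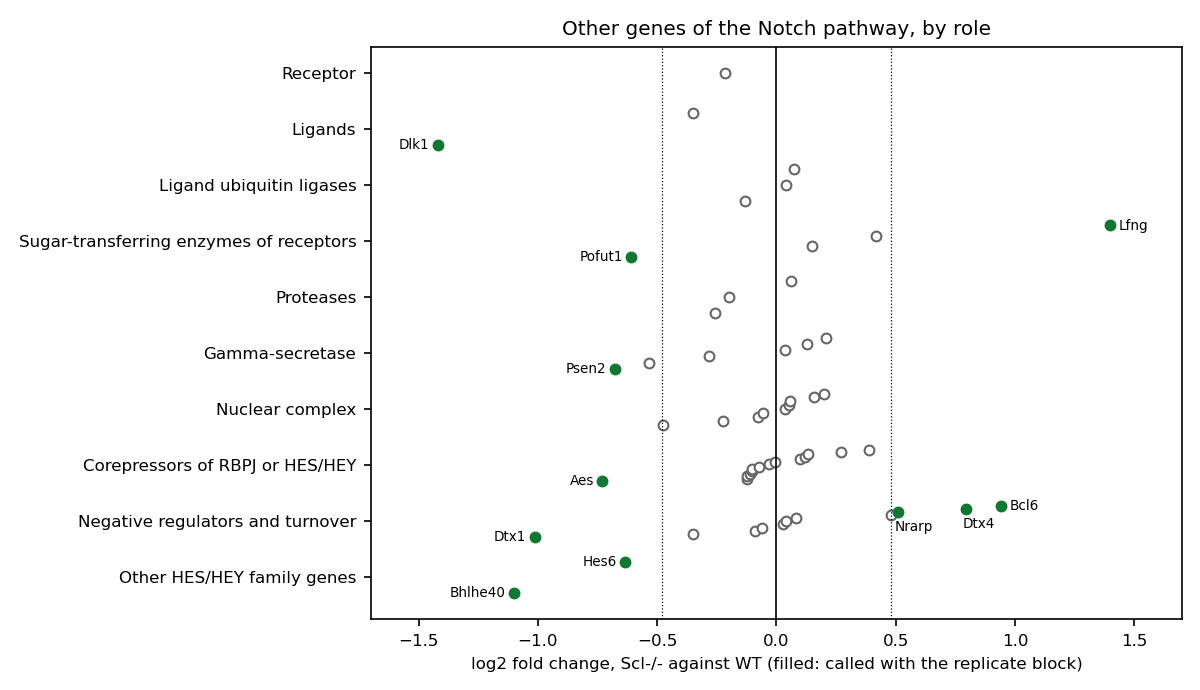
Log2 fold change, Scl-/- against WT, of the 55 other Notch pathway genes (points) by role, where filled points are called with the replicate block and dotted lines mark 0.48. Called genes lie on both sides of 0, from Dlk1 (-1.42) to Lfng (1.40).

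Markers of the cell types that FLK1+ EB cells could hold moved with both the genotype and the replicate number. Of 13 endothelial markers listed, 3 were called lower without and 11 with the block, and none higher. Eng went the other way, higher in each pair with a log2 fold change of 0.47, under the threshold. The summed level of the endothelial markers was 744, 428 and 909 CPM in WT and 340.0, 215 and 389.6 CPM in Scl-/- libraries, with Ramp2 the most abundant. Replicate 2 was lowest in each genotype, as for Hey2 and Dll4 (by little in WT for Dll4), while Hey1 was highest there. Between genotypes, Dll4 had a log2 fold change above 0 with overlapping groups. The log2 fold changes of Tie1 (-3.64), Erg (-3.11) and, called with the block, Sox7 (-2.37) were lower than that of Hey2. Cldn5 (-1.35), Pecam1 (-1.23), Esam (-1.07), Sox18 (-0.56) and Ramp2 (-0.40) fell less than Hey2. The median log2 fold change of the 13 endothelial markers was -1.72. Of 6 arterial markers, 3 were called lower (Gja4, Efnb2 and Acvrl1) and 1 higher (Cxcr4) with the block (Acvrl1 not without pair 2 or pair 3), with Nrp1 the most abundant, and of 3 venous markers 1 was called lower (Aplnr, not without pair 3), with Nrp2 the most abundant. Of 9 haematopoietic markers, 8 were called lower without and 9 with the block, among them Runx1, the most abundant, Myb, Gfi1b, Gata1 and Itga2b. Their summed level was 192, 118 and 191 CPM in WT and 33.9, 20.4 and 19.1 CPM in Scl-/- libraries, and Hbb-bh1 was listed at 0 in the Scl-/- libraries. Whether a changed share of endothelial cells had a part in the Hey2 result was not tested.

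On the paraxial side the list was split, with 3 of 6 listed markers higher and 3 lower in Scl-/- cells in every pair. The higher 3 (Tbx6, Mesp2 and Msgn1) were called with the block, none was called without it, and the lower 3 (Tcf15, Foxc2 and Rspo3) were called in neither fit. Tbx6, which encodes a regulator of presomitic mesoderm and of Dll1, had 5.07, 12.5 and 5.49 CPM in WT and 7.91, 23.2 and 13.6 CPM in Scl-/- libraries, in the order of Dll3. Mesp2 had 1.58, 7.97 and 3.42 CPM in WT and 3.07, 16.7 and 19.5 CPM in Scl-/- libraries. Msgn1 reached at most 5.68 CPM, and its call ended without pair 2 (adjusted p = 0.0672) or pair 3. Tcf15 and Foxc2 had log2 fold changes of -0.70 and -0.23. The list's summed level, 111, 131 and 89.5 CPM in WT and 109, 134 and 111 CPM in Scl-/- libraries, was carried by Rspo3, its most abundant gene, which was not called (log2 fold change -0.14). Of the 12 paraxial names, 6 that mark formed somites or the presomitic boundary (among them Meox1, Pax3 and Uncx) were not analysed here.

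Of 4 pluripotency markers, Pou5f1 and Nanog were highest in replicate 2 of each genotype, as Dll1 and Dll3 were, while Esrrb and Zfp42 were highest in WT replicate 2 but not in Scl-/- replicate 2, where Esrrb was lowest. With the block Pou5f1 and Nanog were called higher and Esrrb lower, and these calls ended without pair 2 (adjusted p = 0.1435, 0.0893 and 0.131). Those of Pou5f1 and Nanog also ended without pair 3 (adjusted p = 0.127 and 0.0703). The summed level was 83.9, 148 and 109.9 CPM in WT and 86.3, 223 and 211 CPM in Scl-/- libraries. In the FLK1+ mesoderm list of 8, Kdr was the most abundant gene. Tal1 was called lower and Etv2 higher without the block. With the block 2 were called lower, Tal1 and Lmo2 (log2 fold change of Lmo2 -0.50), and 4 higher, Mesp1 and Pdgfra among them. Mesp1 had 30.5, 70.5 and 52.1 CPM in WT and 67.8, 178 and 176 CPM in Scl-/- libraries. Of 8 cardiac markers 3 were called higher with the block (Myl7, Isl1 and Gata4, the most abundant) and none lower, but 5 had a log2 fold change below 0 and the median was -0.13. Mef2c (-0.60, every Scl-/- library below every WT library), Smarcd3 (-0.50) and Tbx20 (-0.33) were the lowest. The call of Isl1 ended when any of the 3 pairs was left out and that of Gata4 without pair 3. Of 3 neural markers Tubb3 was called lower with the block, and Pax6, the most abundant, was called in neither fit. Of 3 endoderm markers Hhex, the most abundant, was called lower in both fits and Gsc higher with the block. Selection on FLK1 would remove cells of these types that lack FLK1, and the part of any that were retained in the levels of Dll1 and Dll3 was not tested.

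Among the genes whose log2(CPM + 0.5) followed Dll1 most closely over the 6 libraries, of 11715 with a mean of at least 5 CPM, were ENSMUSG00000085544 (Pearson r = 0.998), Gm15484 (0.997), Pm20d2 (0.996) and BC067074 (0.994). These values are descriptions over 6 libraries that form 3 pairs, and the 2 libraries with the highest Dll1 are both numbered 2. ENSMUSG00000085544, a long noncoding RNA gene, had 0.803, 12.6 and 1.36 CPM in WT and 1.33, 24.75 and 6.94 CPM in Scl-/- libraries, spanning as wide a range as Dll1. It lies at chromosome 17, 15511964 to 15516439 of mm9, on the plus strand, and overlaps the 5′ end of Dll1, which is on the minus strand, over 1873 bases, of which 867 are exonic in both genes. Whether reads of this stretch were assigned to the wrong gene was not tested. Gm15484, Pm20d2 and BC067074 lie on chromosomes 5, 4 and 13. Their log2 fold changes, 0.11, 0.098 and 0.26, were small beside that of Dll1 (1.17), and the correlation does not weigh the size of the variation.

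For Dll4, of 11716 genes, Nucb1 (r = 0.990), Mettl17 (0.990), Wdr54 (0.978) and Fam160b2 (0.977) were among the closest. None of these 4 is an endothelial marker of the list, and their log2 fold changes were small, from 0.06 to 0.13. Nucb1 had 151, 148 and 166.5 CPM in WT and 172.5, 142.5 and 173 CPM in Scl-/- libraries, a narrow range beside that of Dll4, since the correlation takes no account of the size of the variation.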

How the data were processed

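Total RNA of FLK1+ day 3.5 EB cells was sequenced in 6 libraries. The authors deposited CPM values for 14005 genes, and every value was a whole multiple of 1 step per library (100% within 0.02 reads). By the study's methods and the labels, the authors aligned reads to mm9 with TopHat2 2.0.8b, filtered them with SAMtools 0.1.19, removed duplicate read pairs (a limit on highly expressed genes) and used edgeR's TMM scaling. The read counter and annotation were not given in the sources used here. Groups and replicate numbers came from the labels.

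Genes reaching 0.5 CPM in 3 or more libraries (13991 of them, with 14 removed) were tested on log2(CPM + 0.5) with limma 3.58.1 (lmFit, eBayes with an intensity trend) in R 4.3.3, with condition as the only term. P-values are two-sided, and adjustment for multiple testing (Benjamini-Hochberg) covered all tested genes. Deviations from group means correlated across tested genes by 0.587, 0.756 and 0.748 for libraries of the same number and by -0.621 to -0.0996 for others, so the numbers, shared in the labels, were taken as pairs and a fit with this block was added. The code was tested on simulated data. Exon lengths and gene positions came from GENCODE on mm9. Python 3.11.15, NumPy 2.4.6, pandas 2.3.3 and Matplotlib 3.10.9 were used. The alternatives changed the pseudocount (0.1 or 1), the low-value filter (none, or a mean of 2 CPM), the scaling (median ratio), the trend, the fold-change threshold, the tool (limma-voom on recovered reads) and the libraries or pairs included.

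Named are all members, pathway genes called without or with the block plus Notch3, Jag2, Rbpj, Lfng and Hes7, of each marker list the most abundant gene and up to 4 called genes of the largest change, and genes among the 5 most correlated with Dll4 and with Dll1. Hbb-bh1, Eng, Cldn5, Pecam1, Esam, Sox18, Lmo2, Kat2b, Dtx3l, Tcf15, Foxc2, Mef2c, Smarcd3, Tbx20 and Zfp42 were chosen after values were seen. So were the names of list genes not analysed here and the printed promoters. The members and lists were chosen with earlier results of these data known.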

Additional observations from a re-analysis of the deposited data

How the results depend on the processing

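The number of genes called (330) stayed within a factor of 1.5 under both pseudocounts, both filters, median-ratio rescaling, no intensity trend, limma-voom and both fold-change thresholds, and ran from 44 (without WT replicate 1) to 384 (without Scl-/- replicate 1) with a library left out. The replicate block gave 1768, with all 330 among them, and 2062, 1122 and 1210 with pair 1, 2 or 3 left out. The block with limma-voom gave 1828, with a pseudocount of 0.1 it gave 1822, and 3385 passed when no fold change was required. Of the members, Jag1 alone was called in the fits without the block on all libraries, except that 0 passed a log2 fold change of 1 in size, and the count ran from 0 to 0 with a library left out. The block gave 5 members, 5, 4 and 4 with pair 1, 2 or 3 left out, 5 with limma-voom, 5 with a pseudocount of 0.1 and 6 (Hey1 added) when no fold change was required. For the pathway list, 0 were called without the block, except 1 (Dtx1) with no intensity trend and 0 to 2 with a library left out (Dlk1 and Dtx1 without WT replicate 2). The block gave 11, and 11, 9 and 10 with pair 1, 2 or 3 left out, 13 with limma-voom, 13 with a pseudocount of 0.1 and 19 when no fold change was required. The log2 fold change changed sign for 4 genes of small change, namely Hes1 (-0.15 to 0.19 with a library left out), Rbpj (-0.0096 to 0.11), Pax6 (-0.021 to 0.11) and Nrp2 (-0.054 to 0.22, and -0.081 with the block and pair 3 left out), and the cause was not tested. Over 60 named genes, 911 of 1137 alternative values kept direction and side of the threshold, 197 were newly called, 21 lost their call and 8 changed sign. Dll4, Dtx1 and Dtx4 had no value under the mean of 2 CPM. The difference between endothelial and paraxial members ran from -3.05 to -1.16 with a library left out. The block combined with another pseudocount or threshold, the alternatives for genes other than members and those for the endothelial and paraxial difference were chosen after seeing the data.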
